A study of Mus musculus with 16 samples.

Results

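The 10 genes described here are the transcriptional coactivators Yap1 and Wwtr1 (Wwtr1 encodes TAZ), the DNA-binding partners Tead1, Tead2, Tead3 and Tead4, and 4 genes known as YAP targets, Ccn1, Ccn2, Ankrd1 and Wwc1. They were chosen by name, as core members of the YAP-TEAD pathway, out of 35613 genes in the data. All 10 were among the 15533 genes with enough counts to be tested. These genes and the gene lists used below were chosen with earlier results of these data known. Their counts set beside the shares of all genes are therefore descriptions and no independent test. RNA was measured by poly(A)-selected, stranded RNA sequencing in 16 libraries of cultured mouse muscle cells. Every culture came from Pax7-nGFP mice, in which nuclear GFP reports Pax7, the transcription factor of muscle stem cells, and every culture started from primary myoblasts.

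The libraries form 5 groups of 3 biological replicates and a single extra library. Sorted GFP+ MPC and unsorted (bulk) MPC came from myoblasts that had passed 2 to 3 times in myoblast medium and then 5 to 6 times in a medium with 5 µM forskolin, 5 µM RepSox and 3 µM of a compound that the labels spell CHIR9901. Forskolin activates adenylyl cyclase, and RepSox inhibits the TGF-beta type I receptor. The labels do not spell out MPC. Differentiated myoblasts were taken at passage 4 to 5 after 3 days in a low-serum differentiation medium without added FGF. GFP+ myoblasts were sorted at passage 5 to 6, and bulk myoblasts were taken unsorted at passage 3. Both grew in the serum-rich myoblast medium. All cultures other than the differentiated myoblasts, the extra library included, were given bFGF at 10 ng/ml. The parental cells of these 15 libraries were from male mice aged 16 weeks. The extra library holds sorted GFP+ MPC made from myoblasts with 8 passages in myoblast medium and 2 in MPC medium, from a female mouse aged 39 weeks. Medium, serum, passage and drugs changed together between the MPC and myoblast cultures, and the RNA kit differed between sorted cells and whole cultures, so these factors cannot be told apart from the groups. Whole cultures are mixtures, and in bulk RNA fewer cells of a type and less RNA per cell cannot be told apart.

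YAP and TAZ are the output of the Hippo pathway, a kinase cascade that answers to cell contact, cell shape and the stiffness of the surroundings. When LATS kinases phosphorylate them they stay in the cytoplasm, and otherwise they enter the nucleus and bind TEAD proteins, which recognise DNA. The RNA level of Yap1 or Wwtr1 therefore does not measure their activity, and the RNA of target genes is the usual readout. In muscle, YAP is known to favour proliferation of satellite cells and myoblasts, and TEAD proteins bind the MCAT element found before many muscle genes.

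The TEAD core motif GGAATG was searched on both strands (CATTCC on the other) in the 250 bases before the gene starts of RefSeq on build GRCm38.p6. A window was found for 7 of the 10 genes, not for Tead1, Tead4 or Ccn2, and the motif occurred in at least 1 window of 5 of the 7. Over all 32851 windows, 12.6% held the motif and 1.02% held it at least 2 times; counted per gene, 14.4% of all genes with a window and 4 of 13 other YAP target genes had it. A match is a description only. The stretches of Ccn1 and Ankrd1 are shown because both targets have a window with the motif and differed at least 8.6-fold between the sorted groups. Capitals mark the motif, the reading direction is 5′ to 3′ on the strand of the gene, and both genes lie on the minus strand. The Ccn1 stretch is chr3:145649986-145650235 and that of Ankrd1 is chr19:36119845-36120094.
Ccn1: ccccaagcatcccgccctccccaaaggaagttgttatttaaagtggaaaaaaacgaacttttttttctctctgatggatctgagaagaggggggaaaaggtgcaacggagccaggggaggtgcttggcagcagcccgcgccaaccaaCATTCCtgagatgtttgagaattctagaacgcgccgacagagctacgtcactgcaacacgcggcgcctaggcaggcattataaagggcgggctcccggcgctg
Ankrd1: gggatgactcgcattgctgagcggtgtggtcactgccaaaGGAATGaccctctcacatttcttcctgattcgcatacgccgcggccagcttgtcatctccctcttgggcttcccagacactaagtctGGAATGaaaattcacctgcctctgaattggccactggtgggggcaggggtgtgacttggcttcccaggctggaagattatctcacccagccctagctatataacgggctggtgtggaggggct
The motif begins 103 bases before the start of Ccn1 (as CATTCC), and 210 and 123 bases before the start of Ankrd1 (as GGAATG each time). Yap1 has it 141 bases before its start, Wwtr1 136 or 170 bases before its start depending on the window, and Tead3 in 2 of its 3 windows. These letters were not in the windows of Tead2 and Wwc1.

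Each library held 19.3 to 29.1 M estimated counts. Levels are given as CPM, counts scaled to a common library size with TMM factors, and differences are log2 fold changes ± standard error with 3 libraries a group. A gene passed where its Benjamini-Hochberg adjusted p in the quasi-likelihood test of edgeR, over all tested genes, was under 0.05. These p-values set a difference between groups against the spread between these replicate libraries. Pax7 was at 596 to 868 CPM in GFP+ MPC and 829 to 1006 CPM in GFP+ myoblasts, against 57.2 to 137 CPM in bulk MPC, 25.5 to 65.1 CPM in differentiated myoblasts and 528 to 658 CPM in bulk myoblasts. Desmin and M-cadherin (Des and Cdh15) were present in every library. The summed level of 8 markers of differentiated muscle was 797 to 1751 CPM in GFP+ MPC, 59516 to 79220 CPM in bulk MPC, 61318 to 69979 CPM in differentiated myoblasts, 488 to 691 CPM in GFP+ myoblasts and 15815 to 22894 CPM in bulk myoblasts. Fibroblast markers were at 1036 to 1569 CPM in GFP+ MPC, 77.6 to 771 CPM in bulk MPC, 32.7 to 92.9 CPM in differentiated myoblasts, 588 to 897 CPM in GFP+ myoblasts and 650 to 751 CPM in bulk myoblasts. Most of that sum was Col3a1, at a mean of 1171 CPM in GFP+ MPC and 740 CPM in GFP+ myoblasts. Lum was at 0 in both, and Pdgfra at 0.297 CPM in GFP+ MPC and 1.88 CPM in GFP+ myoblasts. Fap was higher in GFP+ MPC (27.6 CPM, against 0.139 CPM in GFP+ myoblasts), and so was Thy1 (14.5 against 1.04 CPM). Of 6 tested fibroblast markers, 3 passed as higher and 1 as lower in GFP+ MPC against GFP+ myoblasts. Over all genes these shares were 26.0% and 22.7%. The 3 bulk MPC libraries were uneven in fibroblast markers. Among them Lum ranged from 0 to 8.24 CPM, Dcn from 0.0468 to 31.5 CPM, Pdgfra from 0.559 to 12.5 CPM and Thy1 from 2.48 to 39.8 CPM. Lum was at 0 in the other replicated groups. The part of other cells in the bulk MPC values was not tested. Endothelial markers reached at most 3.5 CPM in any library. Pericyte and smooth muscle markers were at 378 to 787 CPM in GFP+ MPC, 418 to 557 CPM in bulk MPC, 1177 to 1279 CPM in differentiated myoblasts, 303 to 644 CPM in GFP+ myoblasts and 1263 to 1574 CPM in bulk myoblasts. Acta2 held most of that sum in GFP+ MPC (mean 394 CPM) and GFP+ myoblasts (369 CPM). Between these groups Pdgfrb was at 109 and 4.49 CPM, and Rgs5 at 13.4 and 80 CPM. Of 8 tested markers of this class, 4 passed as higher and 1 as lower in GFP+ MPC (26.0% and 22.7% of all genes).

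**Figure D1:**
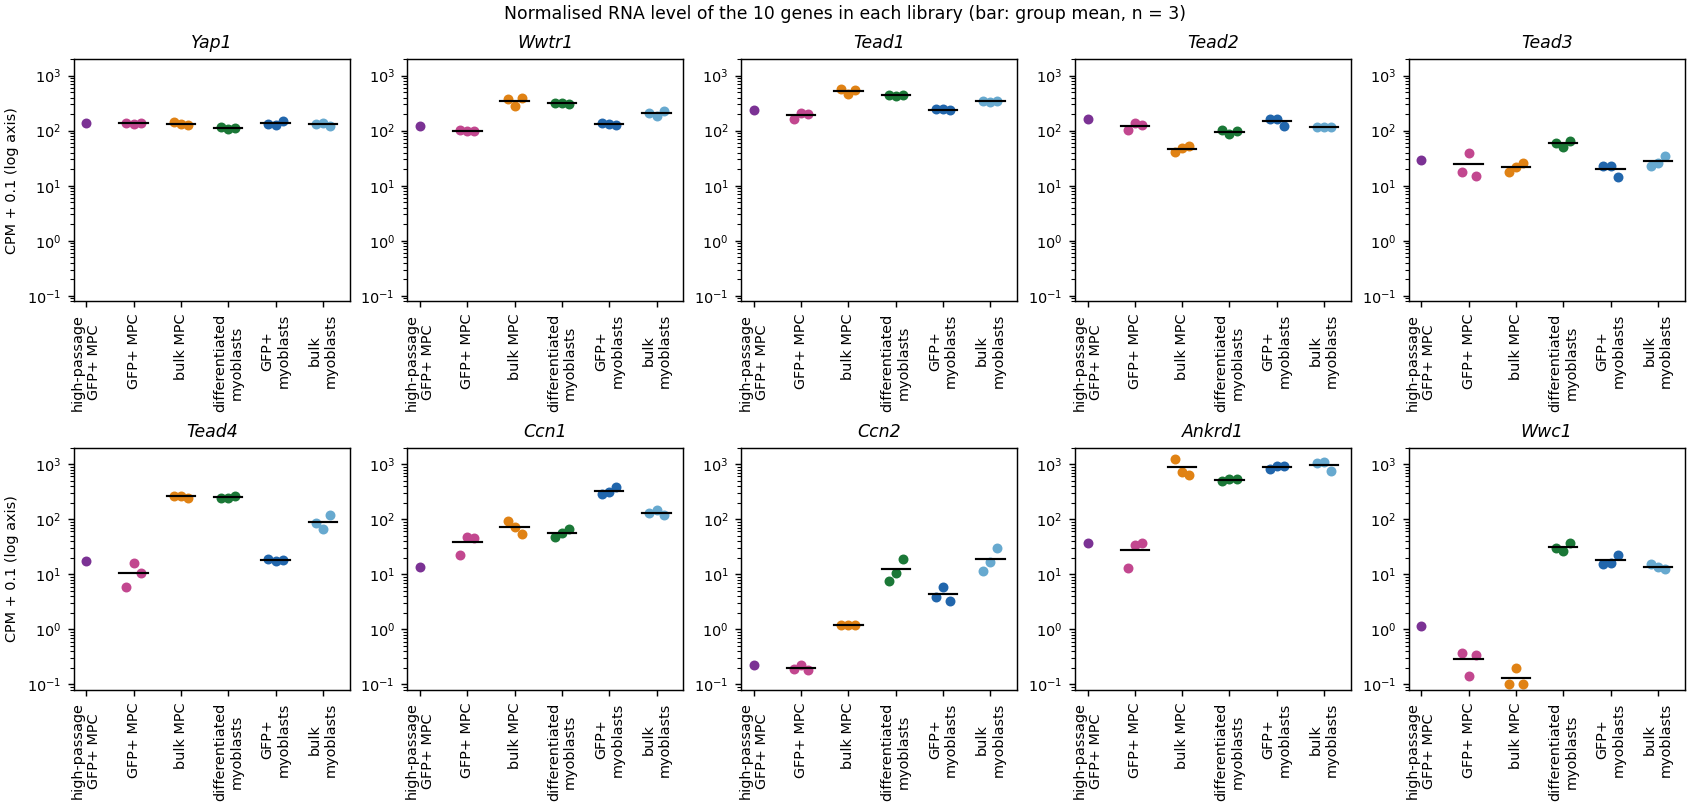
Normalised level of each gene in each library, as CPM plus 0.1 on a log axis, for the 6 kinds of library, with a bar at the mean of each group of 3. Yap1 sits between 106 and 148 CPM in the 5 groups, Tead4 spans 5.76 to 270 CPM, and Ccn2, Ankrd1 and Wwc1 drop to their lowest levels in MPC libraries.

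On the CPM scale Yap1 RNA hardly moved between the cultures, whereas Wwtr1, the gene of the related coactivator TAZ, was high in cultures rich in differentiated muscle RNA and low in sorted cells. Yap1 was at 135, 134 and 139 CPM in the 3 libraries of GFP+ MPC and at 130, 128 and 148 CPM in GFP+ myoblasts, and the groups overlap. It was at 144, 131 and 128 CPM in bulk MPC, at 119, 106 and 110 CPM in differentiated myoblasts and at 134, 135 and 122 CPM in bulk myoblasts. Of the group means, 112 to 136 CPM, only that of differentiated myoblasts lay apart, and its libraries were all below those of bulk myoblasts (-0.22 ± 0.08, adjusted p = 0.0418) and of bulk MPC (bulk MPC against differentiated myoblasts 0.27 ± 0.08, adjusted p = 0.0208). The first had an adjusted p of 0.057 with the replicate number as a block, 0.0705 to 0.125 with RLE scaling, DESeq2 or length-scaled counts, and 0.11 to 0.14 without 4 of the 6 libraries in turn. The second had 0.0537 with only the groups compared and 0.0707 to 0.0887 without 3 of the 6 in turn. The TPM scale carries no TMM factor and is per length. There Yap1 was at 47.2 ± 1.22 TPM in bulk MPC, 47.7 ± 2.59 TPM in differentiated myoblasts and 63 ± 5.49 TPM in bulk myoblasts (SD, n = 3 each). In TPM, bulk MPC and differentiated myoblasts overlapped. Both lay below every library of GFP+ MPC, GFP+ myoblasts and bulk myoblasts, so the grouping depends on the scale.

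Wwtr1 was at 104, 98.2 and 99.8 CPM in GFP+ MPC, against 135, 130 and 125 CPM in GFP+ myoblasts. All 3 GFP+ MPC libraries lay below all 3 GFP+ myoblast libraries, a change of -0.37 ± 0.11 (adjusted p = 0.0164, and 0.0522 without GFP+ myoblast replicate 1). In whole cultures it was higher, at 373, 281 and 387 CPM in bulk MPC and 324, 317 and 305 CPM in differentiated myoblasts, against 208, 182 and 227 CPM in bulk myoblasts. Bulk MPC and differentiated myoblasts overlapped and both lay above bulk myoblasts, by 0.75 ± 0.11 (adjusted p = 0.000106) and 0.62 ± 0.11 (adjusted p = 0.000566). The rise in bulk MPC depends on the scale. In TPM, Wwtr1 was at 81.8 to 104 in bulk MPC and 70.4 to 87.6 in bulk myoblasts, which overlap. Differentiated myoblasts, at 103 to 108 TPM, lay above bulk myoblasts on both scales. Per transcript length, Wwtr1 made up 37.8 ± 1.35% of the summed TPM of Yap1 and Wwtr1 in GFP+ MPC and 43 ± 3.78% in GFP+ myoblasts, but 66.2 ± 3.2% in bulk MPC, 68.8 ± 0.651% in differentiated myoblasts and 55.7 ± 4.78% in bulk myoblasts (SD, n = 3 each). Yap1 was the more abundant coactivator RNA in sorted cells and Wwtr1 in whole cultures.

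The TEAD genes divided by culture: Tead1 and Tead4 were high in whole cultures, most in bulk MPC and differentiated myoblasts, Tead2 was lowest in bulk MPC, and Tead3 stood out in differentiated myoblasts. Tead4, a TEAD gene that the myogenic factors are known to induce during differentiation, was at 5.76, 15.9 and 10.3 CPM in GFP+ MPC and 18.5, 17.6 and 18.3 CPM in GFP+ myoblasts. In whole cultures it was at 266, 270 and 248 CPM in bulk MPC, 244, 243 and 263 CPM in differentiated myoblasts and 85.7, 67.3 and 117 CPM in bulk myoblasts. Bulk MPC and differentiated myoblasts overlapped, and every library of both was above every bulk myoblast library, by 1.54 ± 0.26 (adjusted p = 0.000244) and 1.47 ± 0.26 (adjusted p = 0.000384). The sorted cells lay far below the whole cultures, by -4.61 ± 0.30 in GFP+ MPC against bulk MPC (adjusted p = 3.78e-08) and -2.31 ± 0.27 in GFP+ myoblasts against bulk myoblasts (adjusted p = 3.72e-05). Between the sorted groups, GFP+ MPC lay below GFP+ myoblasts by -0.76 ± 0.27 (adjusted p = 0.0317). The adjusted p was above the threshold when the fit held just the 6 sorted libraries (0.0905), with length-scaled counts (0.053) and without any of 5 of the 6 libraries (0.0581 to 0.0883).

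Tead1, a factor of muscle gene transcription, was at 166, 208 and 201 CPM in GFP+ MPC and 243, 244 and 236 CPM in GFP+ myoblasts. All 3 GFP+ MPC libraries were below the GFP+ myoblast libraries (-0.33 ± 0.10, adjusted p = 0.0146, and 0.0605 without GFP+ MPC replicate 1). Whole cultures held 561, 458 and 549 CPM in bulk MPC, 444, 422 and 445 CPM in differentiated myoblasts and 341, 328 and 351 CPM in bulk myoblasts. Bulk MPC lay above bulk myoblasts by 0.62 ± 0.10 (adjusted p = 0.000163), and differentiated above bulk myoblasts by 0.36 ± 0.10 (adjusted p = 0.00772, and 0.0503 with no filter on low counts). In TPM these groups were closer together. Tead1 was at 81.8 ± 0.839 TPM in bulk MPC, 85.3 ± 2.09 TPM in differentiated myoblasts and 77.8 ± 3.22 TPM in bulk myoblasts (SD, n = 3 each). Tead1 was lower in GFP+ MPC than in bulk MPC by -1.45 ± 0.10 (adjusted p = 7.05e-08) and lower in GFP+ myoblasts than in bulk myoblasts by -0.49 ± 0.10 (adjusted p = 0.00284).

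Tead2, another member of the family, was at 101, 136 and 126 CPM in GFP+ MPC and 163, 160 and 120 CPM in GFP+ myoblasts, groups that overlap (-0.29 ± 0.14, adjusted p = 0.096). In bulk MPC it was at 41.4, 48.4 and 51.9 CPM, against 102, 87.9 and 96.6 CPM in differentiated myoblasts and 119, 116 and 117 CPM in bulk myoblasts. All 3 bulk MPC libraries were the lowest of the series, a change of -1.32 ± 0.14 against bulk myoblasts (adjusted p = 5.31e-06) and -1.02 ± 0.14 against differentiated myoblasts (adjusted p = 8.34e-05). GFP+ MPC exceeded bulk MPC by 1.36 ± 0.14 (adjusted p = 1.63e-06), while GFP+ against bulk myoblasts did not pass (0.33 ± 0.14, adjusted p = 0.0816). Tead3 was at 18, 40 and 15 CPM in GFP+ MPC and 23, 23.1 and 14.6 CPM in GFP+ myoblasts, at 17.5, 22.2 and 25.8 CPM in bulk MPC, and at 22.7, 25.3 and 35.1 CPM in bulk myoblasts. These 4 groups overlap, while differentiated myoblasts, at 60.6, 51.1 and 65.1 CPM, lay above every other library (1.09 ± 0.32 against bulk myoblasts, adjusted p = 0.0108).

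Per transcript length, the makeup of the TEAD family differed between sorted and whole cultures and had similar shares in the 2 sorted groups. Tead2 held 64 ± 1.18% of the summed TPM of the 4 TEAD genes in GFP+ MPC and 64.4 ± 1.84% in GFP+ myoblasts (SD, n = 3 each). Its share was 14.5 ± 3.31% in bulk MPC, 25.2 ± 1.36% in differentiated myoblasts and 41.9 ± 3.84% in bulk myoblasts. Tead4 held 3.83 ± 1.3% in GFP+ MPC and 5.04 ± 0.639% in GFP+ myoblasts, against 48.8 ± 3% in bulk MPC, 41.7 ± 0.808% in differentiated myoblasts and 21.9 ± 4.22% in bulk myoblasts. The share of Tead1 stayed between 23.7 and 33.3% and that of Tead3 between 3.46 and 8.54% (group means). The differentiated muscle markers given above were, like Tead4 and Wwtr1, higher in every whole culture than in sorted cells. Between the sorted groups their sum was higher in GFP+ MPC (797 to 1751 CPM, against 488 to 691 CPM in GFP+ myoblasts), where Tead4 and Wwtr1 were lower. The part of these markers in the results was not tested.

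**Figure D2:**
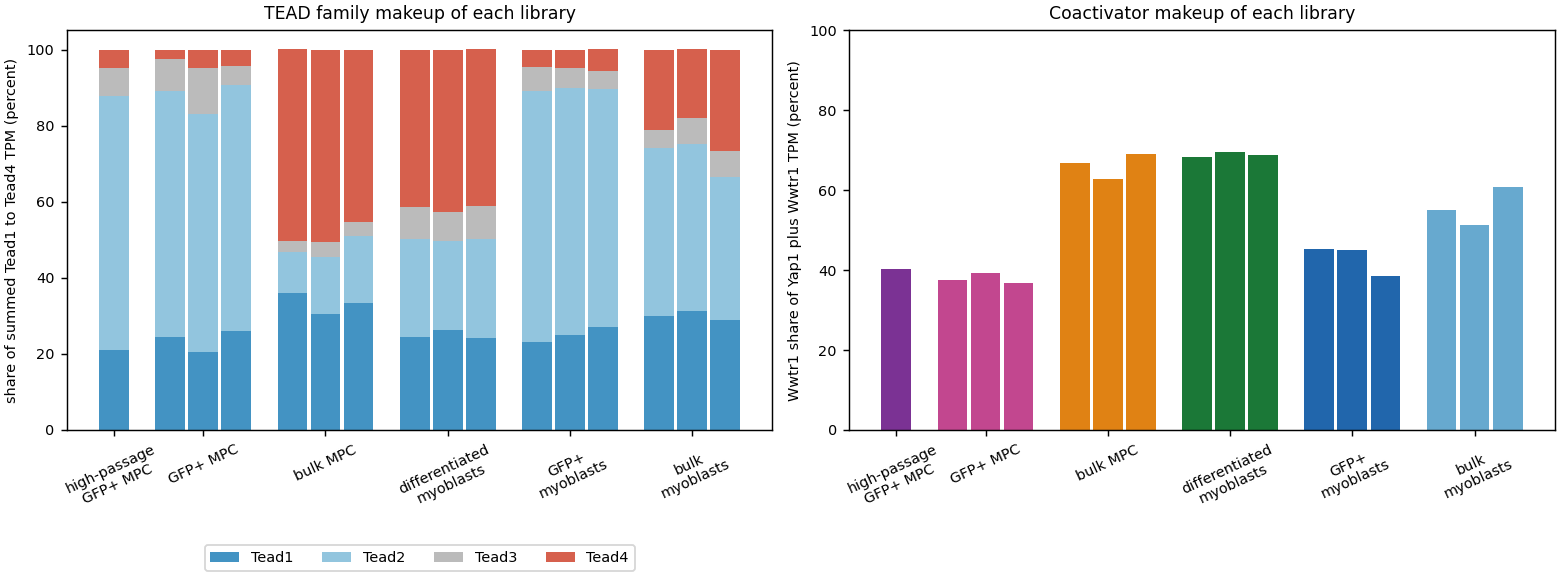
Shares of Tead1, Tead2, Tead3 and Tead4 in their summed TPM (left) and share of Wwtr1 in the summed TPM of Yap1 and Wwtr1 (right), in percent, with a bar for each library. Tead2 fills 62.4 to 66% of the TEAD TPM in sorted cells and 10.9 to 17.4% in bulk MPC, where Tead4 fills 45.3 to 50.6%.

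On the CPM scale the target genes were lowest in GFP+ MPC, apart from Wwc1. Ccn1 (also called Cyr61), a secreted matricellular protein, was at 22.2, 46.6 and 46.4 CPM in GFP+ MPC, against 289, 315 and 387 CPM in GFP+ myoblasts. The groups are far apart, and the change was -3.10 ± 0.28 (adjusted p = 1.95e-06). In whole cultures Ccn1 was at 94.4, 71.4 and 52.9 CPM in bulk MPC, 47.2, 56 and 65.6 CPM in differentiated myoblasts and 129, 148 and 118 CPM in bulk myoblasts. Bulk MPC lay below bulk myoblasts by -0.86 ± 0.26 (adjusted p = 0.0126, and 0.0587 without bulk MPC replicate 3), and differentiated below bulk myoblasts by -1.23 ± 0.26 (adjusted p = 0.00157). In CPM, sorting went with opposite shifts of Ccn1: GFP+ MPC lay below bulk MPC (-0.93 ± 0.26, adjusted p = 0.00698) and GFP+ myoblasts lay above bulk myoblasts (1.32 ± 0.26, adjusted p = 0.00248). The first shift depends on the scale. In TPM, GFP+ MPC (18.1 to 41.1) overlapped bulk MPC (30.8 to 51.7) and differentiated myoblasts (34.4 to 48.5). GFP+ myoblasts (271 to 337 TPM) lay above bulk myoblasts (98.9 to 125 TPM) on both scales.

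Ccn2 (also called Ctgf), a matricellular protein that TGF-beta also induces, was almost absent from GFP+ MPC. The 3 libraries held 2, 3 and 2 counts (0.0907, 0.126 and 0.0789 CPM), against 3.72, 5.73 and 3.19 CPM in GFP+ myoblasts. Over the groups this is 7 against 337 counts, 43.1-fold lower in GFP+ MPC (95% counting interval 20.7 to 108), and the fitted change was -5.34 ± 0.56 (adjusted p = 6.71e-06). Bulk MPC held 1.08, 1.1 and 1.12 CPM, differentiated myoblasts 7.58, 10.5 and 18.9 CPM and bulk myoblasts 11.3, 16.6 and 29.7 CPM. Bulk MPC lay below bulk myoblasts by -4.12 ± 0.43 (adjusted p = 4.96e-06) and below differentiated myoblasts by -3.48 ± 0.42 (adjusted p = 3.54e-05), with no overlap. Differentiated and bulk myoblasts overlapped (-0.64 ± 0.36, adjusted p = 0.152, and -1.09 with an adjusted p of 0.0281 without differentiated replicate 3).

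Ankrd1, an ankyrin-repeat protein of muscle and a standard YAP target, was at 12.9, 33.9 and 36.4 CPM in GFP+ MPC, against 817, 941 and 939 CPM in GFP+ myoblasts. The lowest GFP+ myoblast library exceeded the highest GFP+ MPC library by far, and the change was -5.02 ± 0.38 (adjusted p = 4.13e-07). Whole cultures differed much less, with 1257, 727 and 649 CPM in bulk MPC, 488, 538 and 547 CPM in differentiated myoblasts and 1039, 1111 and 743 CPM in bulk myoblasts. Bulk MPC and bulk myoblasts overlapped (-0.14 ± 0.32, adjusted p = 0.734), and differentiated lay below bulk myoblasts by -0.88 ± 0.32 (adjusted p = 0.0326, and 0.0673 to 0.0999 without 5 of the 6 libraries in turn). GFP+ MPC lay below bulk MPC by -4.98 ± 0.38 (adjusted p = 1.26e-07), whereas GFP+ and bulk myoblasts overlapped (-0.10 ± 0.32, adjusted p = 0.838). The summed level of 14 immediate early and dissociation genes, a class to which Ccn1 is often counted, was 444 to 804 CPM in GFP+ MPC, 821 to 908 CPM in bulk MPC, 546 to 616 CPM in differentiated myoblasts, 443 to 517 CPM in GFP+ myoblasts and 531 to 566 CPM in bulk myoblasts; its part in these results was not tested.

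Wwc1 encodes KIBRA, which activates the Hippo kinases and is itself a YAP target. It was nearly silent in MPC cultures, sorted or not. GFP+ MPC held 6, 1 and 6 counts (0.272, 0.0422 and 0.237 CPM) and bulk MPC 0, 2 and 0 counts, while differentiated myoblasts held 30, 26.4 and 36.7 CPM, GFP+ myoblasts 15.2, 15.9 and 22.1 CPM and bulk myoblasts 15, 13.6 and 12.5 CPM. Every myoblast library exceeded every MPC library. Wwc1 was 94.6-fold lower in GFP+ MPC than in GFP+ myoblasts (13 against 1373 counts, 95% counting interval 55.2 to 178, adjusted p = 7.84e-08). It was 401-fold lower in bulk MPC than in bulk myoblasts (2 against 1081 counts, 111 to 3314, adjusted p = 1.43e-07), and at least 172-fold lower without bulk MPC replicate 2, which held both counts, with a floor of 3 counts over the group. Against differentiated myoblasts, bulk MPC was 904-fold lower (2 against 1733 counts, 250 to 7475), and at least 387-fold lower without bulk MPC replicate 2. These intervals cover counting error only. Differentiated lay above bulk myoblasts by 1.18 ± 0.27 (adjusted p = 0.00271). The 13 counts of GFP+ MPC against 2 of bulk MPC (ratio 5.33, counting interval 1.21 to 48.7) passed at an adjusted p of 0.0349, but not without any of 4 of the 6 libraries (0.0973 to 0.128).

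**Figure D3:**
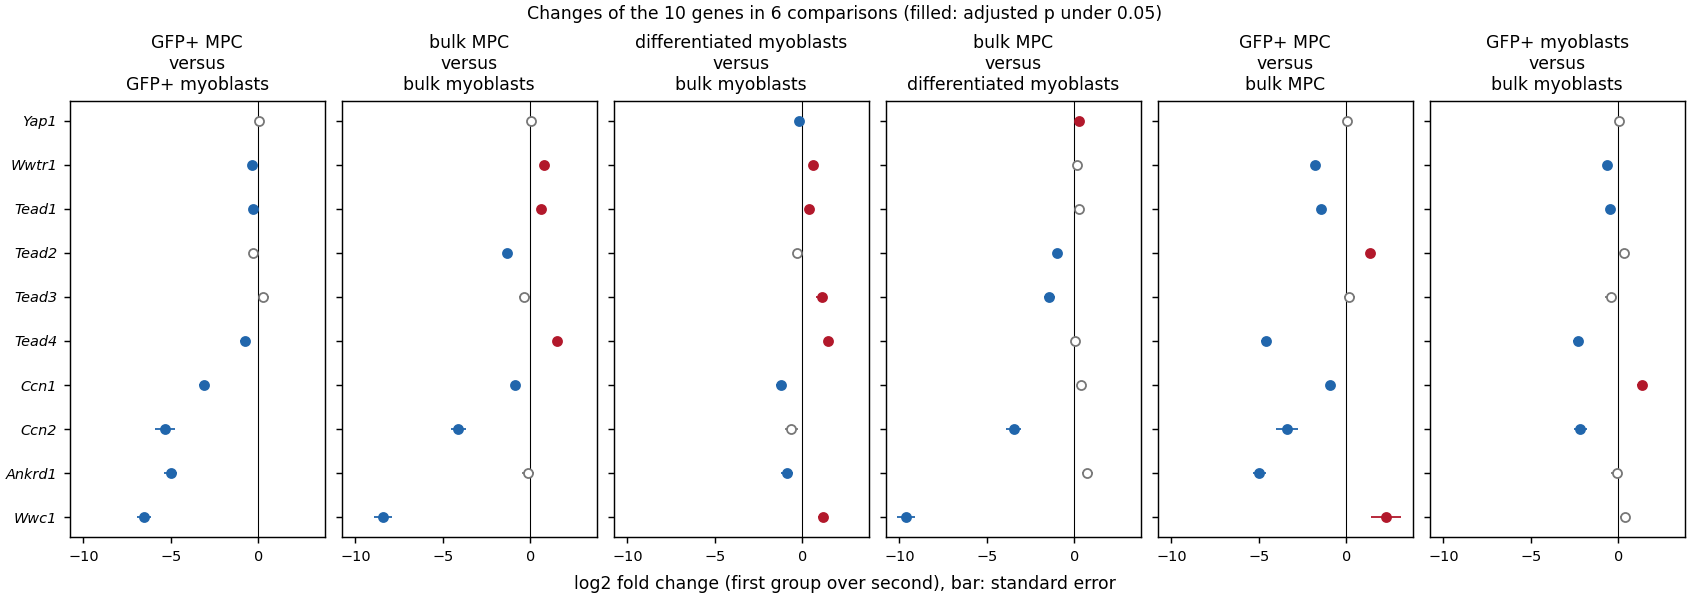
Log2 fold change ± standard error of the 10 genes in 6 comparisons, first-named group over the other; filled points passed at an adjusted p under 0.05, red higher and blue lower. Between sorted groups the 4 targets lie between -3.10 and -6.56 while the coactivators and TEAD genes lie between -0.76 and 0.27; fitted values of Wwc1 in bulk MPC rest on 2 counts and depend on the prior count.

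Between sorted cells, GFP+ MPC against GFP+ myoblasts, 7 of the 10 genes were lower and 0 higher, where 48.6% of all tested genes passed, 26.0% higher and 22.7% lower. The libraries of the 2 groups did not overlap for 7 of the 10 genes, as for 51.2% of all. The targets and the factors differed in size: Ccn1, Ccn2, Ankrd1 and Wwc1 changed by at least 8.6-fold, and Wwtr1, Tead1 and Tead4 by at most 1.7-fold. The median log2 change of all 10 genes was -0.56, against 0.09 over all tested genes. In bulk MPC against bulk myoblasts, 3 genes were higher (Wwtr1, Tead1 and Tead4) and 4 lower (Tead2, Ccn1, Ccn2 and Wwc1), where 58.5% of all genes passed (28.4% higher, 30.1% lower), and 7 of the 10 did not overlap, as 69.2% of all. In differentiated against bulk myoblasts, 5 were higher (Wwtr1, Tead1, Tead3, Tead4 and Wwc1) and 3 lower (Yap1, Ccn1 and Ankrd1), where 54.2% passed (25.6% higher, 28.6% lower), and 9 of the 10 did not overlap, as 71.2% of all. In bulk MPC against differentiated myoblasts, 1 was higher (Yap1) and 4 lower (Tead2, Tead3, Ccn2 and Wwc1), where 43.8% passed (24.4% higher, 19.4% lower), and 7 of the 10 did not overlap, as 59.6% of all.

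Sorted cells were then set against the whole cultures of the same medium. Both MPC groups have the same passage history, but GFP+ myoblasts were taken at passage 5 to 6 and bulk myoblasts at passage 3, so sorting and passage cannot be told apart in the myoblasts. In GFP+ MPC against bulk MPC, 2 genes were higher (Tead2 and Wwc1) and 6 lower (Wwtr1, Tead1, Tead4, Ccn1, Ccn2 and Ankrd1), where 66.6% of all genes passed (32.9% higher, 33.7% lower), and 7 of the 10 did not overlap, as 67.7% of all. In GFP+ against bulk myoblasts, 1 was higher (Ccn1) and 4 lower (Wwtr1, Tead1, Tead4 and Ccn2), where 30.0% passed (12.7% higher, 17.4% lower), and 7 of the 10 did not overlap, as 52.5% of all. The sort effects themselves differed between the MPC and the myoblast culture for 6 of the 10 genes, where 37.1% of all genes did. The difference, MPC minus myoblast culture, was positive for 1 (Tead2) and negative for 5, against 20.3% and 16.8% of all genes. The largest such difference was that of Ankrd1, at -4.88 ± 0.48 (adjusted p = 1.64e-05).

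Other known YAP targets, a list of 19 genes that were all tested, were mostly lower in MPC. Like the 10 genes, this list was chosen with earlier results of these data known. In GFP+ MPC against GFP+ myoblasts, 10 were lower and 3 higher, where 22.7% of all tested genes were lower and 26.0% higher, with a median log2 change of -1.41 against 0.09 over all genes. Nuak2, a stress kinase, was at 0.389 ± 0.212 CPM in GFP+ MPC and 21.7 ± 3.83 CPM in GFP+ myoblasts (-5.77 ± 0.33, adjusted p = 4.47e-08). The receptor tyrosine kinase gene Axl was at 31.8 ± 17.4 CPM in GFP+ MPC and 728 ± 44.8 CPM in GFP+ myoblasts (-4.52 ± 0.52, adjusted p = 1.56e-05), and Crim1, a transmembrane regulator of growth factors, changed by -4.99 ± 0.44 (adjusted p = 1.69e-06). Tgfb2 of the same list went the other way, at 220 ± 101 CPM in GFP+ MPC and 13.2 ± 5.04 CPM in GFP+ myoblasts. In bulk MPC against bulk myoblasts, 10 were lower and 2 higher (30.1% and 28.4% of all genes), with a median of -1.26 against -0.01. Axl was at 13.1 ± 10.8 CPM in bulk MPC and 447 ± 97.8 CPM in bulk myoblasts (-5.09 ± 0.54, adjusted p = 6.01e-06, and -6.03 without bulk MPC replicate 2), and Nuak2 changed by -4.61 ± 0.32 (adjusted p = 3.32e-07). In differentiated against bulk myoblasts 10 were lower and 0 higher (28.6% and 25.6% of all genes), with a median of -0.63 against -0.03. GFP+ myoblasts against bulk myoblasts gave 2 lower and 2 higher, a count near the 17.4% lower and 12.7% higher of all genes.

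Hippo kinases and their upstream regulators, 23 genes, went both ways. In GFP+ MPC against GFP+ myoblasts, 11 were lower and 2 higher (22.7% and 26.0% of all genes), with a median of -0.20 against 0.09 over all genes. The atypical cadherin Fat4 was at 2.7 ± 1.82 CPM in GFP+ MPC and 32.1 ± 11.2 CPM in GFP+ myoblasts (-3.56 ± 0.57, adjusted p = 0.000213, and -4.25 without GFP+ MPC replicate 3), and the YAP-binding angiomotin family gene Amotl2 was at 43.2 ± 24.2 CPM in GFP+ MPC and 187 ± 23.7 CPM in GFP+ myoblasts (-2.11 ± 0.33, adjusted p = 0.00019). Amotl2, Lats2 and Ptpn14 also belong to the YAP target list. In bulk MPC against bulk myoblasts 12 were lower and 5 higher, where 30.1% and 28.4% of all genes were, with a median of -0.57 against -0.01. The largest changes there were those of Fat4 (-5.16 ± 0.67, adjusted p = 2.92e-05, and -7.13 without bulk MPC replicate 2) and Dchs1, the cadherin that binds Fat4 (-3.48 ± 0.83, adjusted p = 0.00283, and -4.33 without bulk MPC replicate 1). The other angiomotins were higher: Amotl1 was at 1673 ± 329 CPM in bulk MPC and 228 ± 43 CPM in bulk myoblasts (2.87 ± 0.18, adjusted p = 1.43e-07), and Amot at 646 ± 101 CPM in bulk MPC and 95.5 ± 11.3 CPM in bulk myoblasts (2.76 ± 0.21, adjusted p = 5.07e-07). Amot lay at 37.2 ± 12.2 CPM in GFP+ MPC, below bulk MPC by -4.12 ± 0.22 (adjusted p = 9.33e-09).

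**Figure D4:**
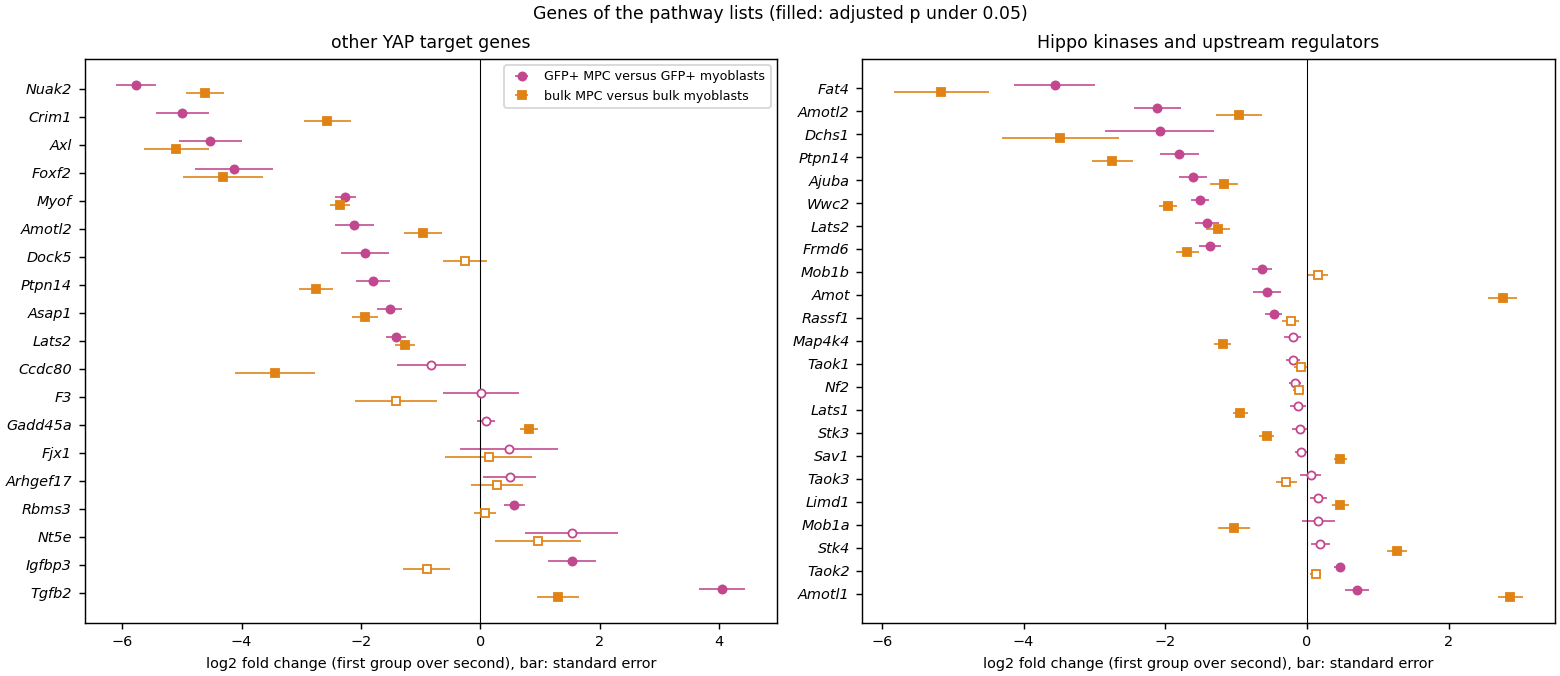
Log2 fold change ± standard error of the 19 other YAP target genes (left) and the 23 Hippo genes (right), for GFP+ MPC over GFP+ myoblasts (circles) and bulk MPC over bulk myoblasts (squares); filled points passed at an adjusted p under 0.05. Nuak2 and Axl lie between -4.52 and -5.77 in both, while Amotl1 and Amot lie right of 2 in the whole cultures.

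Vestigial-like proteins compete with YAP for TEAD, and 3 of their 4 genes were tested. Vgll3 was at 236 ± 58.8 CPM in GFP+ MPC and 105 ± 23.5 CPM in GFP+ myoblasts (1.16 ± 0.18, adjusted p = 0.000146), but at 85.1 ± 6.43 CPM in bulk MPC and 144 ± 3.53 CPM in bulk myoblasts (-0.76 ± 0.18, adjusted p = 0.00241). Vgll2 was at 17.9 ± 6.78 CPM in GFP+ MPC and 4.34 ± 3.93 CPM in GFP+ myoblasts (2.08 ± 0.64, adjusted p = 0.0167). That call ended without GFP+ MPC replicate 2 (0.052) and without GFP+ myoblast replicate 1 or 2 (0.0629 and 0.0672), and the change was 3.10 without GFP+ myoblast replicate 3. Of the other CCN genes, 2 of 3 tested were lower and 0 higher in GFP+ MPC against GFP+ myoblasts (22.7% of all genes lower), and likewise in bulk MPC against bulk myoblasts (30.1% lower). Ccn4, a Wnt-induced matricellular gene, was at 26.7 ± 10.7 CPM in GFP+ MPC and 124 ± 26.3 CPM in GFP+ myoblasts (-2.21 ± 0.36, adjusted p = 0.000251), and at 6.28 ± 3.99 CPM in bulk MPC and 103 ± 12.4 CPM in bulk myoblasts (-4.03 ± 0.40, adjusted p = 3.42e-06, and -4.70 without bulk MPC replicate 2). Other TGF-beta target genes, included because Ccn2 is one and RepSox blocks the receptor, had 6 of 7 lower and 0 higher both between the sorted groups (median -3.57 against 0.09 over all genes, 22.7% of which were lower) and between the whole cultures (median -2.17 against -0.01, with 30.1% lower). The part of these genes in the change of Ccn2 was not tested.

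The single high-passage GFP+ MPC library, for which no test is possible, kept the levels of the targets low. It held 3 counts of Ccn2, 36.7 CPM of Ankrd1, 13.4 CPM of Ccn1 and 1.03 CPM of Wwc1 (24 counts). Against the range of the 3 GFP+ MPC libraries, Ccn1 was below (22.2 to 46.6 CPM) and Wwc1 above (0.0422 to 0.272 CPM). Wwtr1, Tead1, Tead2 and Tead4 were also above their ranges, and Yap1 (139 CPM) and Tead3 (28.9 CPM) were inside. Ankrd1 lay just above its range (highest 36.4 CPM). So did Ccn2 in CPM (0.129, against a highest of 0.126), though its 3 counts equal those of GFP+ MPC replicate 2.

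Shares of the main transcripts of Tead4 overlapped between the sorted groups. Its 2 most abundant transcripts, Tead4-201 and Tead4-203, held 40 to 54.3% and 45.7 to 56.5% of its TPM in GFP+ MPC, and 44.5 to 54.8% and 45.2 to 55.5% in GFP+ myoblasts. For Yap1, the transcript Yap1-202 held 69.6 to 72.5% in GFP+ MPC, against 36.4 to 60.3% in bulk MPC, and in GFP+ myoblasts it held 58.9 to 66.8%. Shares between isoforms that overlap are estimates of the deposited quantification and have no count of their own.

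Across the 15 replicated libraries, the gene whose log2 CPM was most like that of Ankrd1 was Bcl2l1 (Pearson r = 0.98), the survival factor Bcl-xL. For Ccn2 these were Tlr4 (r = 0.97), Ephb2 and F2rl1 (r = 0.96 each), for Tead4 Dlgap4, Synrg and Mief2 (r = 0.99 each) and for Wwc1 Il17ra and Galnt10 (r = 0.98 each). The points fall in 5 groups that share medium and sorting, so each r describes differences between groups and shows nothing of shared control.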

How the data were processed

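Per the file headers, the deposited files give for each transcript estimated counts, TPM, and 2 lengths (an other unit) for 16 libraries. Per the submitters' processing notes, the tools of the authors included kallisto 0.46.1 and fastp 0.20.0, and the build was GRCm39; other settings are not given in the sources used here. Transcripts were summed per gene with the GENCODE M21 annotation (names only, since it is on GRCm38): of 121798 transcripts 120739 matched, and the 1059 unmatched held 0.478 to 1.05% of counts. Counts were rounded and tested in edgeR 4.0.16 (R 4.3.3) by the quasi-likelihood test, in a single fit of 15 libraries and 5 groups with TMM scaling, a low-count filter (minimum count 10, minimum total 15), a threshold of 0.05 and 10 residual degrees of freedom. CPM carry the TMM factors; the authors' TPM do not. The 7 comparisons and the named genes follow fixed rules: all 10 genes, and for each list up to 4 genes with the largest change past the threshold and the same direction in all 3 same-numbered pairs. Tgfb2 is named outside these rules, as a YAP target that was higher in MPC. The members and lists were chosen with earlier results of these data known. Alternatives were RLE scaling, DESeq2 1.42.0, no filter, only the groups compared, length-scaled counts, a replicate block and leaving out each library.

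Same-numbered libraries carry the same number in their library names, read here as the same parental line. Over 30 same-numbered pairs the deviations from the group means correlated at -0.17 to 0.21 (median 0.023, 8 pairs over 0.1). Over 60 other pairs they correlated at -0.26 to 0.16 (median -0.0085, 3 pairs over 0.1). The main fit holds no term for the shared number, which only the replicate block takes up. Libraries were checked for duplicates, and no pair of replicates agreed within counting noise (chi-square per degree of freedom of at least 9.85). Ratios of few counts have 95% exact (Clopper-Pearson) intervals scaled by library size, for counting error only, and a group at 0 counts is set to a floor of 3 counts.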

Additional observations from a re-analysis of the deposited data

Results flagged for a closer look

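Sorting for GFP went with different changes in the MPC and in the myoblast culture for 6 of the 10 genes, tested as an interaction (edgeR, adjusted p under 0.05 over all genes). The difference, sort effect in MPC minus sort effect in myoblasts on the log2 scale, was -1.12 for Wwtr1 (adjusted p = 0.000218), -0.95 for Tead1 (0.000263) and 1.03 for Tead2 (0.0012). It was -2.30 for Tead4 (0.000483), -2.25 for Ccn1 (0.00053) and -4.88 for Ankrd1 (1.64e-05). Sorted MPC held much less Ankrd1 than whole MPC cultures (-4.98 ± 0.38) while sorted myoblasts held nearly the same as whole myoblast cultures (-0.10 ± 0.32). Ccn1 was lower in sorted than in whole MPC cultures (-0.93 ± 0.26), though these groups overlap in TPM. It was higher in sorted than in whole myoblast cultures (1.32 ± 0.26). The markers of differentiated muscle were at 59516 to 79220 CPM in bulk MPC and 15815 to 22894 CPM in bulk myoblasts. Their part in these differences was not tested. Sorted myoblasts were at passage 5 to 6 and whole myoblast cultures at passage 3, so sorting and passage cannot be told apart in that culture.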

How the results depend on the processing

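The number of the 10 genes past the threshold stayed within 1.5 times of the reported one in every alternative, and leaving out single libraries gave 5 to 7 in GFP+ MPC against GFP+ myoblasts. Every value that turned sign was one that had not passed. Yap1 in GFP+ MPC against GFP+ myoblasts was 0.01, and -0.02 with RLE scaling, -0.00 with no filter, -0.06 with length-scaled counts, -0.02 with DESeq2 and -0.06 with only the groups compared (-0.04 to 0.07 leaving out libraries). Yap1 in GFP+ MPC against bulk MPC was -0.02 with RLE, -0.05 with length-scaled counts and -0.02 with DESeq2 (-0.02 to 0.07). Leaving out libraries gave Yap1 -0.01 to 0.08 in bulk MPC against bulk myoblasts, -0.01 to 0.09 in GFP+ against bulk myoblasts and -0.08 to 0.03 for the difference of sort effects. Tead3 spanned -0.30 to 0.52 in GFP+ MPC against GFP+ myoblasts and -0.40 to 0.42 against bulk MPC, turning without GFP+ MPC replicate 2. Ankrd1 spanned -0.49 to 0.04 in bulk MPC against bulk myoblasts and -0.26 to 0.01 in GFP+ against bulk myoblasts. Among 70 values, the replicate block ended 1 call, that of Yap1 in differentiated against bulk myoblasts (adjusted p = 0.057), and turned 0. Leaving out a library ended 24 and began 7 of 480 calls. The fold of Wwc1 in MPC moved by over 1.5 times with length-scaled counts (-5.84 in sorted and -9.25 in whole cultures); the cause was not tested. Ccn2 and Wwc1 in MPC rest on 2 to 64 counts a group, which limits their folds.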
